A study of Rattus norvegicus with 6 samples.

Results

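The genes described here encode the nuclear part of the mitochondrial respiratory chain and of ATP synthase, with some of the factors that assemble them, in the rat insulinoma line INS-1. They were chosen by gene symbol alone: every symbol of the array annotation that begins with Nduf, with Sdh and a letter from a to d, with Uqcr, with Atp5 or with Cox and a digit from 4 to 8, and also Cycs and Cyc1. Of 12603 genes measured by probesets with exactly 1 symbol, 88 were members, read by 99 probesets. They comprised 36 genes of complex I and 6 of its assembly factors, 4 genes of complex II and 4 of its assembly factors, 8 of complex III, 14 of complex IV and 16 of complex V, which is ATP synthase. A further 13 symbols fit the rule, Cycs, Cox7a2, Atp5mc1 and Atp5mc2 among them, but lay on probesets shared between symbols alone and were not used here.

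Electrons from NADH enter the chain at complex I and those from succinate at complex II, pass through coenzyme Q to complex III, and travel on cytochrome c to complex IV, which reduces oxygen. Complexes I, III and IV pump protons across the inner membrane, and complex V lets them back to make ATP. In beta cells the ATP made this way from glucose closes potassium channels and so triggers insulin secretion. Several complex IV subunits exist as isoforms that differ between tissues.

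The cells were 1 clone of INS-1 carrying insulin 2 C96Y, the misfolding proinsulin of the Akita mouse, fused to GFP under a doxycycline (Dox) switch. The 3 groups were untreated cells, cells given 4 μg/ml Dox according to the sample labels (the methods give another concentration), and cells given the same Dox together with 4μ8c at 5 μM, which blocks the RNase of IRE1α, each for 48 h. Every group carried the transgene, so doxycycline itself and the mutant proinsulin cannot be told apart. Each group had 1 array in each of 2 experiments, and the comparisons ask what Dox did to these genes and how cells given 4μ8c as well differed. No array here had 4μ8c alone, so an effect of 4μ8c itself and a change in the response to Dox cannot be told apart. The paper also treated cells with 4μ8c alone and reports no changes of 1.5 fold or more, which does not cover smaller differences.

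The deposited log2 values were centred within an experiment, so each is a level relative to the other arrays of its experiment, and levels of different genes, or the presence of beta cell markers, cannot be read from them. In experiment 1 the middle array of the 3 was at exactly 0 for 100% of probesets, and all 3 arrays were at 0 for 25.5%, so a difference of exactly 0 there was called a tie. The SD over all probesets was 0.050 to 0.12 on 5 arrays and 0.18 on the Dox array of experiment 2. That array also stood apart in its spike-in controls, whose gap between 5′ and 3′ probesets changed by -0.46 against untreated (median of 7 pairs), beside -0.26 on the Dox+4μ8c array of the same experiment and -0.073 and 0.028 on the Dox and Dox+4μ8c arrays of experiment 1. Targets of the stress response moved with the labels: by limma, Trib3 rose by 2.88 with Dox (SE 0.09, adjusted p = 0.000162), and Dnajb9, a target of spliced Xbp1, rose by 1.25 with Dox (SE 0.10, adjusted p = 0.0024) and fell by 1.05 when 4μ8c was added (SE 0.10, adjusted p = 0.0129).

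Most of the 88 genes stayed close to their untreated level under Dox. Of these, 2 rose and none fell past the test (limma, p under 0.05 after Benjamini-Hochberg adjustment across the 12603 genes), where 4.42% of all genes rose and 2.01% fell. With no adjustment, a p under 0.05 was reached by 5 members above and 6 below untreated, against 11.2% and 8.44% of all genes. Both that rose, Cox6a2 and Ndufa4l2, are paralogs of another member that did not pass the test. The mean change lay within 0.2 of 0 on the log2 scale for 85 of the 88, and for 11022 of all 12603 genes.

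Cox6a2 encodes the heart and skeletal muscle form of complex IV subunit VIa, and Ndufa4l2 encodes a relative of Ndufa4 known as a target of hypoxia-inducible factor. Promoters of both are shown because they are the members that rose, and those of Atp5me (subunit e of ATP synthase) and Ndufaf4 (a complex I assembly factor) because they hold the full NRF1 motif; Atp5me was picked after its sequence was seen. Each runs 5′ to 3′ from 250 bases before the annotated start to 50 after it, from RefSeq on GRCr8. Capitals mark matches to the motifs searched. Cox6a2 lies at chr1:192219667-192219966 on the minus strand, Ndufa4l2 at chr7:65241919-65242218 on the plus strand, Atp5me at chr14:1464610-1464909 on the plus strand and Ndufaf4 at chr5:43401545-43401844 on the plus strand.
Cox6a2: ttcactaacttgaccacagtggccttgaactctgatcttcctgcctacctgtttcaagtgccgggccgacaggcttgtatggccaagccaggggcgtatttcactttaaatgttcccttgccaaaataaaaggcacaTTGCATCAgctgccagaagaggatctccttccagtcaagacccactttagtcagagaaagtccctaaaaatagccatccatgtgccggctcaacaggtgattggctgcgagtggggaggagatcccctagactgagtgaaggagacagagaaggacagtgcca
Ndufa4l2: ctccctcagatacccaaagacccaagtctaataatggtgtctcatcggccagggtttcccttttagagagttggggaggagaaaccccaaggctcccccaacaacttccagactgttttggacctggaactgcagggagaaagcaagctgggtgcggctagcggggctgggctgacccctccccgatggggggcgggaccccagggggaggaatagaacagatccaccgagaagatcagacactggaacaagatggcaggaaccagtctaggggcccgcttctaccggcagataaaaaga
Atp5me: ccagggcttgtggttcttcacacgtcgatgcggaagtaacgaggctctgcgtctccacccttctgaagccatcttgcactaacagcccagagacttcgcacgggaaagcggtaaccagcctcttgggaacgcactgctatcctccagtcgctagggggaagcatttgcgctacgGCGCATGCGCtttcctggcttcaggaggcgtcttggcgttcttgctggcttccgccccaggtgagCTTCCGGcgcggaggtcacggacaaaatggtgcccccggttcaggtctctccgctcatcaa
Ndufaf4: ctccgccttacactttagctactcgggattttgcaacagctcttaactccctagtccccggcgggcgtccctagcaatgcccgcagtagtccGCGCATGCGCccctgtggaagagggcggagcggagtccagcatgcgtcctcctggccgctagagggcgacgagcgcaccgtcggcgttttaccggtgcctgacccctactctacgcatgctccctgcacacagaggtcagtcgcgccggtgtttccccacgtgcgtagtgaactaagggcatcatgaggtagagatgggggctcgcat

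In Cox6a2 the capitals are TTGCATCA, the reverse complement of the ATF4 element TGATGCAA, which begins 113 bases before the start. It was the one match to this element among the 79 members with a promoter in the table. Of all 27457 promoters of that length 0.743% held it, and of those of genes on the array 0.558%. The stretch shown for Ndufa4l2 held none of the motifs. In Atp5me the first capitals are the full NRF1 motif, 76 bases before the start, and the others, on the opposite strand, GABPA (CCGGAAG). The capitals in Ndufaf4 are the full NRF1 motif too. A match describes these letters and is not evidence that a factor binds.

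The centred log2 value of Cox6a2 was -0.58 in untreated cells, 0.064 with Dox and 0.00 with Dox+4μ8c in experiment 1. In experiment 2 it was -0.19, 0.54 and 0.19 in the same order. In both experiments the untreated array was lowest and the Dox array highest, with the inhibitor-treated array between them. Cox6a2 rose with Dox by 0.69 on the log2 scale (SE 0.07, adjusted p = 0.00521), or 1.61 fold, with a 95% confidence interval of the log2 difference from 0.51 to 0.87. The change was 0.65 in experiment 1 and 0.73 in experiment 2, and Cox6a2 was the one member past 1.5 fold, a size that 0.968% of all genes reached upward. None was lower by that much, beside 0.175% of all genes. Cox6a1, the form of subunit VIa found in most tissues, differed by -0.061 and 0.084 in the 2 experiments. The change of Cox6a2 therefore exceeded that of Cox6a1 by 0.71 and 0.65, a difference between probesets given without a test.

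**Figure D1:**
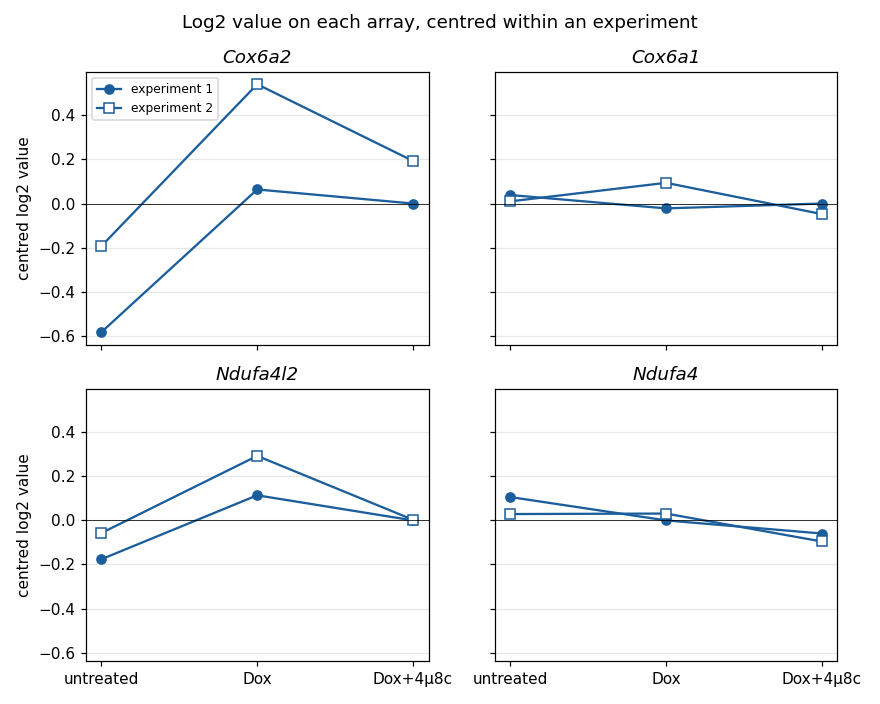
Centred log2 value (vertical axis) of Cox6a2, Cox6a1, Ndufa4l2 and Ndufa4 on each array, by treatment, with filled circles for experiment 1 and open squares for experiment 2. Cox6a2 and Ndufa4l2 were lowest in untreated cells and highest with Dox in both experiments, whereas Cox6a1 and Ndufa4 kept within 0.11 of 0 on every array.

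Ndufa4l2 was at -0.18 in untreated cells, 0.11 with Dox and 0.00 with Dox+4μ8c in experiment 1, and at -0.057, 0.29 and 0.003 in experiment 2. The order of the arrays was that of Cox6a2, over a smaller range. It rose with Dox by 0.32 (SE 0.06, limma adjusted p = 0.0289), or 1.25 fold, by 0.29 and 0.35 in the 2 experiments. The call was lost when the Dox array of experiment 2 was left out (0.26, adjusted p = 0.0833), and also without the untreated array of experiment 1 or 2 (adjusted p = 0.135 and 0.144) or either Dox+4μ8c array (adjusted p = 0.0551). The call for Cox6a2 held when any 1 array was left out. Without a term for experiment both calls were lost (adjusted p = 0.11 for Cox6a2 and 0.0723 for Ndufa4l2). Ndufa4, once assigned to complex I and now counted with complex IV, differed by -0.11 and 0.002 with Dox.

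Several other members were higher with Dox in both experiments without passing the test. Uqcrq, a small subunit of complex III, was higher by 0.13 and 0.32 in the 2 experiments (mean 0.22, SE 0.07, limma adjusted p = 0.129), and passed without the Dox array of experiment 1 (adjusted p = 0.0153), which leaves only the Dox array that stood apart. Ndufaf4 differed by 0.18 and 0.19 (adjusted p = 0.0748). The value of Sdhaf1, which helps insert iron-sulfur clusters into complex II, was 0.080 and 0.19 above untreated (adjusted p = 0.206), and that of Cox7a2l, a supercomplex assembly factor, 0.069 and 0.14 (adjusted p = 0.316).

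Small differences below untreated were more common, with a mean change under 0 for 58 members, or 65.9%, beside 45.1% of all genes. Over the 88 members the median change with Dox was -0.037, against 0.011 over all genes, and it was -0.068 in experiment 1 and -0.013 in experiment 2. It became -0.013 without the Dox array of experiment 1 and -0.063 without that of experiment 2. Of the 88, 43 were lower in both experiments and 8 were higher in both, where 24.8% and 26.6% of all genes were. In experiment 1, 14 members (15.9%) and 25.2% of all genes were tied, and a tied gene cannot count in either direction. Among genes without a tie, 58.1% of 74 members were lower in both, against 33.2% of all such genes. With each array centred on its median over all genes, 48 members were lower in both and the median was -0.048. These are descriptions of a list, with no test, and total RNA was loaded, so less of an mRNA per cell and more of other RNA cannot be told apart.

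**Figure D2:**
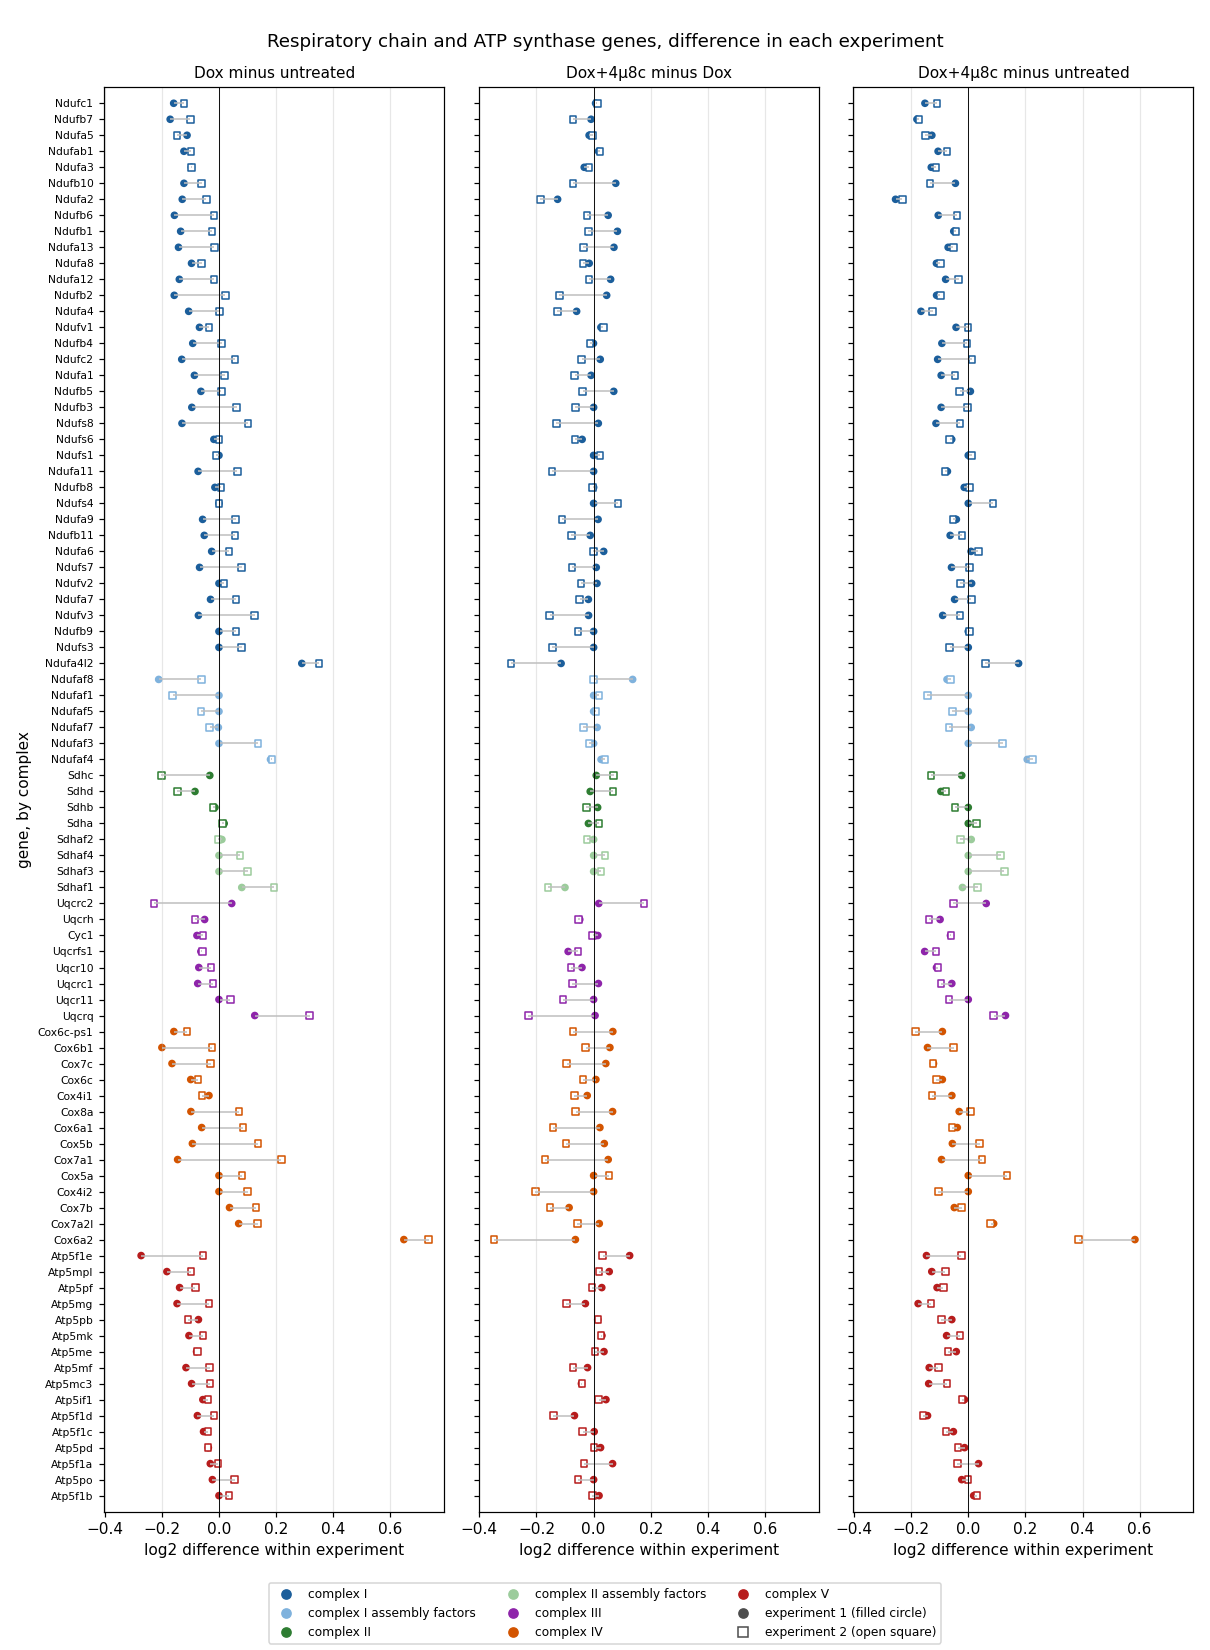
Log2 difference within an experiment (horizontal axis) for each of the 88 genes, ordered by complex, in the 3 comparisons, with filled circles for experiment 1, open squares for experiment 2 and a grey line joining them. With Dox (left) 14 of 16 complex V genes lay below 0 in both experiments, and Cox6a2 and Ndufa4l2 stand to the right of the rest of their complexes.

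Genes were grouped into complexes by symbol prefix, so Ndufa4 and Ndufa4l2 were counted with complex I. Of these 36 genes 1 rose, Ndufa4l2, and none fell past the test. The median change with Dox was -0.030. In experiment 1, 30 of the 36 were below untreated with a median of -0.089, and in experiment 2, 15 were, with a median of 0.008, so 14 were below in both. Of all 12603 genes, 5024 were below in experiment 1, 5279 in experiment 2 and 24.8% in both, the shares to set beside each complex. Among genes without a tie in experiment 1, 33.2% of all genes were below in both, beside 45.2% for complex I and 93.3% for complex V. Ndufc1, an accessory subunit, had the lowest mean change: it was at 0.15, -0.007 and 0.00 in untreated, Dox and Dox+4μ8c cells of experiment 1 and at 0.054, -0.067 and -0.054 in experiment 2. Untreated cells were highest both times, and the difference with Dox was -0.14 (SE 0.05, limma adjusted p = 0.159). Of the core subunits, Ndufs1, which carries iron-sulfur clusters, was tied in experiment 1 and differed by -0.011 in experiment 2. Ndufv1, which binds NADH, differed by -0.068 and -0.035 (mean -0.052). Among the assembly factors, Ndufaf8 was at the other end from Ndufaf4, with -0.21 and -0.061 in the 2 experiments (adjusted p = 0.254).

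In complex II, the catalytic pair differed little with Dox, Sdha by 0.015 and Sdhb by -0.017, while the membrane anchors lay lower, Sdhc by -0.12 (SE 0.06, limma adjusted p = 0.329) and Sdhd by -0.11 (SE 0.05, adjusted p = 0.264). None of the 4 passed the test, and 3 were below untreated in both experiments. In complex III, 5 of 8 were below untreated in both experiments, and the median was -0.055. Cyc1, which encodes cytochrome c1, differed by -0.077 and -0.057, the hinge protein gene Uqcrh by -0.050 and -0.084, the Rieske protein gene Uqcrfs1 by -0.063 and -0.058, and the core protein gene Uqcrc1 by -0.074 and -0.021. No complex III gene passed the test.

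In complex IV, 1 of 14 genes rose, Cox6a2, and none fell past the test. The 14 had a median change with Dox of -0.077 in experiment 1 and 0.083 in experiment 2, with 5 below and 3 above untreated in both. Cox7a1, another muscle form, differed from untreated by -0.14 in experiment 1 and by 0.22 in experiment 2, and Cox8a and Cox6a1 also differed in sign between the experiments. Cox4i2, the hypoxia form of subunit IV, was tied in experiment 1 and 0.10 higher in experiment 2. Its usual counterpart Cox4i1 lay at -0.035 and -0.059. Cox5a was also tied in experiment 1 and 0.082 higher in experiment 2. Of the others, Cox6b1 differed by -0.20 and -0.024, and the transcript annotated as the pseudogene Cox6c-ps1 by -0.16 and -0.11. Whether that probeset also reads Cox6c mRNA was not tested.

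In complex V nearly all genes lay slightly below untreated. With Dox 15 of 16 genes were below untreated in experiment 1 and 14 in experiment 2, the same 14 of them in both, and none was above in both. The median was -0.069, with -0.077 and -0.038 in the 2 experiments, and the range ran from -0.16 to 0.017. Without the Dox array of experiment 1 the median was -0.044, and without that of experiment 2 it was -0.080. None passed the test, and for 2 the p before adjustment was under 0.05. Atp5f1e, the epsilon subunit of the catalytic head, was at 0.15, -0.13 and 0.00 in untreated, Dox and Dox+4μ8c cells of experiment 1 and at 0.012, -0.043 and -0.012 in experiment 2. Untreated cells were highest both times, by more in experiment 1, and the mean difference with Dox was -0.16 (SE 0.06, limma adjusted p = 0.218). Atp5mpl, a small proteolipid of the membrane part, differed by -0.18 and -0.098 (adjusted p = 0.175), and Atp5mc3, a gene for the rotating c subunit, -0.096 and -0.032. The genes of the catalytic alpha and beta subunits, Atp5f1a and Atp5f1b, differed by -0.017 and 0.017, and that of the inhibitor, Atp5if1, by -0.048.

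The size of change that these arrays could resolve bears on all of this. With 2 arrays a group, the median 95% interval reached 0.12 to each side on the log2 scale, or 1.09 fold. The interval with Dox lay within 1.5 fold in either direction for 87 of the 88 genes. Differences of the size of the complex V median are smaller than the interval of a single gene.

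Among genes outside the chain, those of the cytosolic ribosome ran the other way with Dox. Of 53, 31 were above untreated in both experiments and 2 were below, with a median of 0.054 and none past the test. The 73 genes of the mitochondrial ribosome had a median of 0.004, with 22 above and 17 below in both and 1 that rose past the test. Of all genes, 26.6% were above and 24.8% below in both, and 4.42% rose past the test. Neither ribosomal group was tested against the respiratory chain genes.

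**Figure D3:**
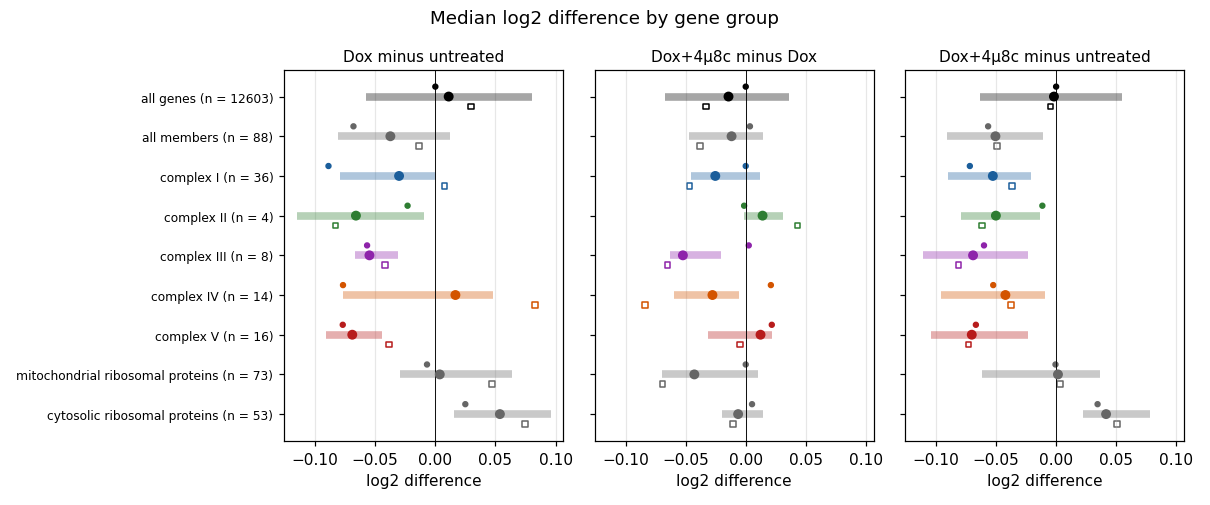
Median log2 difference (horizontal axis) of each gene group in the 3 comparisons. Large points are medians of the mean change, bars span the interquartile range over genes, and small filled circles and open squares are the medians in experiments 1 and 2. The medians of complexes II, III and V lay below 0 with Dox in both experiments, that of complex IV lay on opposite sides of 0, and that of the cytosolic ribosomal proteins lay above 0 in both.

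Adding 4μ8c to Dox changed no member past the test, in either direction, where limma called 0.175% of all genes higher and 1.61% lower. Before adjustment none of the members was higher and 5 were lower at p under 0.05, beside 2.79% and 8.44% of all genes. No member differed by 1.5 fold, a size that 0.0397% of all genes reached upward and 0.357% downward. Among the 5 were both genes that rose with Dox. They were picked for high values on the Dox arrays, which this comparison subtracts, so this overlap is not independent evidence. Cox6a2 was lower with Dox+4μ8c than with Dox by 0.064 and 0.35 in experiments 1 and 2 (mean -0.21, 95% interval -0.39 to -0.027, adjusted p = 0.35), and Ndufa4l2 by 0.11 and 0.29 (mean -0.20, 95% interval -0.34 to -0.062, adjusted p = 0.216). Sdhaf1 differed by -0.10 and -0.16 (adjusted p = 0.41), and Ndufa2, an accessory subunit of complex I, by -0.13 and -0.19 (adjusted p = 0.261).

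The medians for Dox+4μ8c minus Dox were small. Over all members it was -0.012, beside -0.014 over all genes, and 0.00089 once each array was centred on its own median. Of the 88, 53 had a mean change under 0, beside 57.9% of all genes. They split into 24 lower and 13 higher in both experiments, against 26.9% and 19% of all genes. Among genes without a tie in experiment 1, 33.8% of members and 37.3% of all genes were lower in both. By complex the medians were -0.025 for complex I, 0.014 for complex II, -0.052 for complex III, -0.028 for complex IV and 0.012 for complex V. The 2 experiments differed here: 26 members were lower in experiment 1 and 66 in experiment 2, beside 4556 and 7703 of all genes. In experiments 1 and 2 the medians were 0.00 and -0.047 for complex I and -0.0014 and 0.043 for complex II. They were 0.0025 and -0.065 for complex III, 0.021 and -0.084 for complex IV, and 0.022 and -0.0046 for complex V. In complex V the range was from Atp5f1d (the delta subunit), at -0.067 and -0.14, to Atp5f1e, at 0.13 and 0.031.

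Compared with untreated cells, which also served as the reference for Dox alone, cells given Dox+4μ8c had 1 member higher and none lower past the test, where 1.17% of all genes were higher and 1.13% lower. Cox6a2 rose by 0.49 (SE 0.07, limma adjusted p = 0.0328), or 1.40 fold, by 0.58 and 0.39 in the 2 experiments. This call was lost without either untreated array (adjusted p = 0.155 and 0.16) or either Dox+4μ8c array (adjusted p = 0.258 and 0.104), and without a term for experiment (adjusted p = 0.285). Ndufa4l2 stood 0.18 and 0.060 above untreated (mean 0.12, adjusted p = 0.414). Ndufaf4 differed by 0.21 and 0.23 (mean 0.22, SE 0.05, adjusted p = 0.0794), close to its value with Dox alone.

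Before adjustment, p was under 0.05 for 12 members below and 2 above untreated, beside 9.15% and 6.27% of all genes. The lowest was Ndufa2. Its values in untreated, Dox and Dox+4μ8c cells were 0.13, 0.00 and -0.13 in experiment 1 and 0.11, 0.067 and -0.12 in experiment 2. The order of the arrays was the same both times, and the difference from untreated was -0.24 (SE 0.05, limma adjusted p = 0.069). Without a term for experiment the adjusted p was 0.0969. When 1 untreated or Dox+4μ8c array was left out, the difference ranged from -0.27 to -0.22. Atp5mg, a membrane subunit of complex V, differed by -0.18 and -0.13 (adjusted p = 0.212), Atp5f1d by -0.14 and -0.16 (adjusted p = 0.197) and Uqcrfs1 by -0.15 and -0.11 (adjusted p = 0.235).

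No member was 1.5 fold higher or lower than untreated, beside 0.302% and 0.159% of all genes. Of the 88, 71 had a mean change under 0, where 50.9% of all genes did. Over all 88 members the median was -0.050, beside -0.002 for all genes, and 53 lay below untreated in both experiments and 7 above, against 28.9% and 23.9% of all genes. Among genes without a tie in experiment 1, 71.6% of members and 39.7% of all genes lay below in both. With each array centred, 49 members lay below in both and the median was -0.048. The experiments were nearer to each other than for Dox alone, with medians of -0.057 and -0.049. In complex V 14 of 16 were below in both and 1, Atp5f1b, above, with a median of -0.070. The counts below in both were 24 of 36 for complex I, 2 of 4 for complex II, 5 of 8 for complex III and 7 of 14 for complex IV. Because both comparisons use the same untreated arrays, their likeness is not independent evidence.

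**Figure D4:**
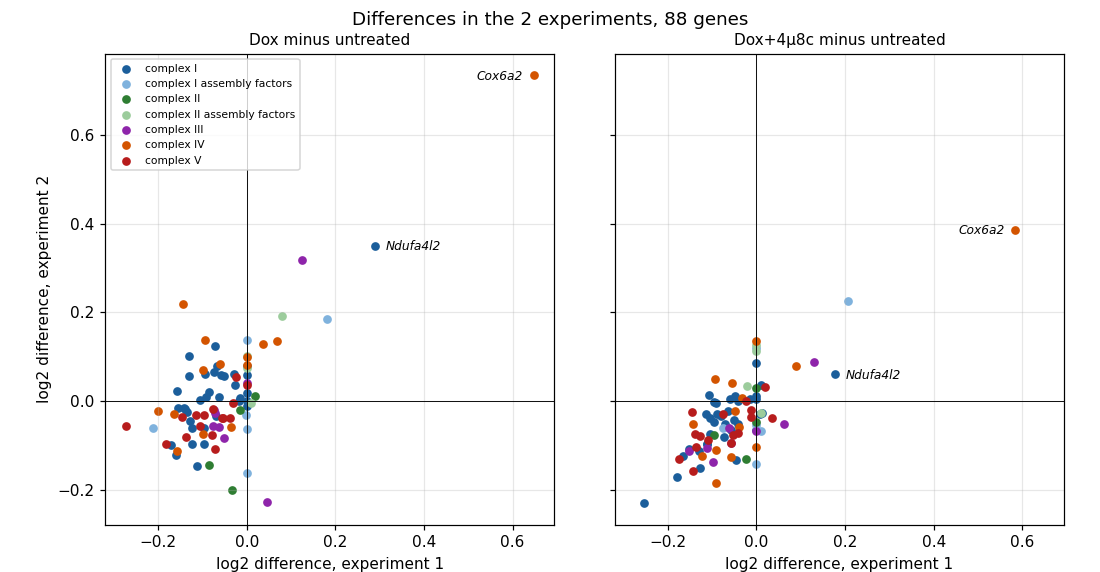
Log2 difference from untreated in experiment 1 (horizontal axis) against experiment 2 (vertical axis), 1 point for each of the 88 genes, coloured by complex, for Dox (left) and Dox+4μ8c (right). Cox6a2 is far from the others in both panels, 43 (left) and 53 (right) of the points lie below 0 on both axes, and points on the vertical line at 0 are ties of experiment 1.

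Across the 88 genes the change with Dox in experiment 1 correlated with that in experiment 2 at r = 0.72, and at r = 0.42 over the 86 without Cox6a2 and Ndufa4l2. For Dox+4μ8c minus untreated the values were 0.77 and 0.67. Genes are not independent replicates, and all points of an axis share arrays. Where a gene had more than 1 probeset, as 10 members did, the probesets did not always move together. With Dox those of Ndufv3 differed by -0.13 and 0.18, and those of Ndufa9 by -0.10 and 0.10. Both probesets of Uqcrc2 were above untreated in experiment 1 (0.019 and 0.070) and below it in experiment 2 (-0.085 and -0.37). Cox6a2 and Ndufa4l2 had 1 probeset each.

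Motifs of the factors known to drive respiratory chain genes were searched on both strands in the 79 matched promoters. GABPA (CCGGAAG) was found in 25 (31.6%), against 9.22% of all 27457 promoters and 16.4% of those of genes on the array. The full NRF1 motif, as in capitals in Ndufaf4, was in 5 (6.33%, against 0.932% of all and 1.79% on the array) and its core GCGCATG, which lies inside it, in 12 (15.2%, against 3.94% and 6.38%). The ERR motif TCAAGGTCA was in 2 (2.53%, against 0.412% of all and 0.212% on the array) and its core AAGGTCA in 11 (13.9%, against 4.37% and 2.88%). Of the elements of the stress response, besides the match in Cox6a2, none of the 79 held TGATGAAA, the UPR element core TGACGTGG or the ER stress response element ERSE. Of all promoters 1.12%, 0.637% and 0.0765% held them, and of those on the array 0.519%, 0.856% and 0.163%. At shares this low, the lack of a match among 79 promoters says little.

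Among lists of related genes, regulators of mitochondrial gene expression had 1 of 24 higher with Dox past the test: Pprc1, a coactivator of NRF1, rose by 0.31 (SE 0.05, limma adjusted p = 0.0213). Over all genes 4.42% rose with Dox, so 1 call in a list of 24, or of 20 as below, is near that share. Of 20 genes of coenzyme Q synthesis and electron entry, 1 rose, Etfdh, which passes electrons from fatty acid oxidation to coenzyme Q, by 0.25 with Dox (adjusted p = 0.032) and 0.28 with Dox+4μ8c (adjusted p = 0.0429). Of 21 genes of the TCA cycle and pyruvate dehydrogenase none passed with Dox, and Ogdh, a subunit of the oxoglutarate dehydrogenase complex, fell by 0.29 with Dox+4μ8c against untreated (SE 0.05, adjusted p = 0.0429). In that comparison 1.17% of all genes were called higher and 1.13% lower. None of 39 assembly factors, of 21 genes of mitochondrial import and cristae, or of the 2 measured subunits encoded by mitochondrial DNA passed in any comparison.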

How the data were processed

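RNA of 6 samples of INS-1 cells was hybridised by the authors to Affymetrix rat 3′ IVT arrays. The deposited log2 values were made with RMA per the labels (version not given in the sources used here), and proved to be centred per probeset within each experiment, so only differences within an experiment were used. Of 25476 probesets, 52 were controls, 7068 had no symbol, 378 had several and 17978 had 1. These were averaged per gene, after old symbols were updated, to 12603 genes.

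limma (version 3.58.1, run under R 4.3.3) was fitted by lmFit and eBayes, with two-sided tests, to all genes with terms for group and experiment, the replicate number of the labels, since the methods describe 2 independent experiments. This left 2 residual degrees of freedom and 4.25 prior ones, and the number of arrays limits precision. Adjusted p-values are Benjamini-Hochberg over all 12603 genes, and calls lie under 0.05. Named were genes past the test, fixed core subunits and isoforms, and the most extreme genes of each complex with the same sign in both experiments. Members and lists were chosen with earlier results of these data known. Alternatives were the fit without experiment, arrays centred on their median, single probesets, medians over probesets, robust eBayes, subunits alone and leaving out each array. The other steps were run in Python 3.11.15, and the limma fit was tested on simulated data for Dox minus untreated.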

Additional observations from a re-analysis of the deposited data

How the results depend on the processing

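Without the experiment term (no replicate block), no member was called in any comparison: the count that rose with Dox went from 2 to 0, the count that rose with Dox+4μ8c against untreated from 1 to 0, and the limma adjusted p of Cox6a2 was 0.11 and 0.285 and that of Ndufa4l2 with Dox 0.0723. In this fit the SE of the change with Dox went from 0.07 to 0.19 for Cox6a2 and from 0.058 to 0.071 for Ndufa4l2. For Atp5f1a it went down from 0.050 to 0.040. The values are centred within an experiment, and whether that plays a part was not tested. With probesets fitted singly the counts were 1 (Cox6a2) and 0, and among subunits alone 1 gene was called with Dox. Leaving out each array in turn gave 1 to 3 genes that rose with Dox, and 0 to 2 higher and 0 to 1 lower with Dox+4μ8c against untreated. The third to rise, without the Dox array of experiment 1, was Uqcrq, and without either Dox array Ndufaf4 rose and Ndufa2 fell with Dox+4μ8c. Medians ranged, on leaving out arrays, with Dox from -0.063 to -0.013 over the members, from -0.080 to -0.026 (without the untreated array of experiment 2, and -0.042 without the Dox array of experiment 2) for complex II, from -0.057 to -0.043 for complex III, from -0.080 to -0.044 for complex V, from -0.075 (without the untreated array of experiment 2) to 0.0019 (without the Dox array of experiment 1) for complex I and from -0.067 (without the Dox array of experiment 2) to 0.075 (without that of experiment 1) for complex IV. For Dox+4μ8c minus Dox they ranged from -0.042 to 0.0054 over the members, -0.053 to 0.0086 for complex I and -0.0088 to 0.020 for complex V, and so changed sign. For Dox+4μ8c minus untreated they ranged from -0.075 to -0.028 over the members, -0.096 to -0.016 for complex I, -0.067 to -0.0088 for complex II, -0.093 to -0.051 for complex III, -0.074 to -0.0026 for complex IV and -0.080 to -0.065 for complex V, whose median was -0.063 over single probesets. That probeset setting and the centring of each array for counts in both experiments were chosen after seeing the data. So were the shares among genes without a tie (43 of 74 members lower in both with Dox). The cause of these shifts was not tested. Array centring, medians over probesets and robust eBayes changed no call of a member.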
